A study of Mus musculus with 9 samples.

Results

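The DNA replication and mitosis genes described here are 36 genes of the cell cycle, taken by gene symbol from a table of 25860 genes: 14 act at the G1/S boundary and in DNA replication, and 22 act in G2 and mitosis. All 36 were found in the table, and all 36 passed the filter on low counts that left 13712 genes for testing. They were measured by RNA sequencing in 5 IRE1KO and 4 WT libraries of Osx1-Cre calvarial cells, cells of the newborn mouse skull roof in which the osterix promoter (gene Sp7, active in bone-forming cells) drives a Cre recombinase transgene. Cells of either genotype were sorted by flow cytometry from pools of 3 to 5 pups aged 2 to 4 days, grown in alpha-MEM with 10% FBS, and harvested at 90% confluence without any further treatment named in the labels. Each pool counts as a biological replicate in the labels, which give no strain, litter, sort or culture day and no deleted exons of Ern1, the gene of IRE1, an endoplasmic reticulum kinase and endoribonuclease of the unfolded protein response.

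Cells copy their DNA in S phase and divide in mitosis, and the genes for the machinery of each step are transcribed in waves. E2F factors, held in check by the RB family, drive the G1/S wave, which includes cyclin E, the MCM helicase and the enzymes that make deoxynucleotides. The DREAM complex, and later B-MYB and FOXM1, act through CHR elements on the G2/M wave, whose promoters are also known for CCAAT boxes. The G2/M wave includes the mitotic cyclins and kinases, kinetochore proteins and mitotic kinesins. Transcripts of both waves are low in resting cells, so that their level in a bulk culture depends on how many cells are cycling. Fewer cycling cells and less RNA per cycling cell cannot be told apart in these libraries.

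Motifs known for each wave were found in the members' promoters. The RefSeq table on GRCm38.p6, with windows of 300 bases that run from 250 bases before to 50 after each start, held 13 windows for 12 G1/S members and 18 windows for 18 G2/M members, and Aurkb, Ccna2, Ccne2, Kif20a, Mcm4 and Tpx2 had no entry. The motifs were searched on both strands as the letters TTTCCCGC, TTTCGCGC, TTTGCCGC and TTTGGCGC for E2F, TTTGAA and TTTAAA for CHR, and CCAAT. An E2F match lay in 6 of 13 G1/S windows (46.2%), 1 of 18 G2/M windows (5.56%) and 2.26% of all 32851 windows. A CHR match lay in 4 of 13 G1/S windows (30.8%), 17 of 18 G2/M windows (94.4%) and 27.6% of all windows. CCAAT was found in 69.2% of G1/S windows, 94.4% of G2/M windows and 37.4% of all windows, and 88.9% of G2/M windows held CHR and CCAAT together, against 10.7% of all windows. These are counts of letters and do not show that a factor binds there. The 200 bases before the start are shown for 3 G1/S members and 4 G2/M members because they hold the motifs that differ in frequency between the waves, with all matches in capitals (E2F and CHR motifs, CCAAT or its complement ATTGG, some of them overlapping). Read 5′ to 3′ along the gene, they are Cdc6 at chr11:98907951-98908150 (plus strand), Mcm5 at chr8:75109309-75109508 (plus strand), Mcm6 at chr1:128359706-128359905 (minus strand), Ccnb1 at chr13:100786487-100786686 (minus strand), Cdk1 at chr10:69352913-69353112 (minus strand), Mki67 at chr7:135716380-135716579 (minus strand) and Top2a at chr11:99024190-99024389 (minus strand).
Cdc6: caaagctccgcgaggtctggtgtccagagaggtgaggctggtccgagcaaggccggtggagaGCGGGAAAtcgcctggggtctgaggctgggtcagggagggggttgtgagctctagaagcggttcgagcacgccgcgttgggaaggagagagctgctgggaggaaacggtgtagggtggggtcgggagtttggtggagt
Mcm5: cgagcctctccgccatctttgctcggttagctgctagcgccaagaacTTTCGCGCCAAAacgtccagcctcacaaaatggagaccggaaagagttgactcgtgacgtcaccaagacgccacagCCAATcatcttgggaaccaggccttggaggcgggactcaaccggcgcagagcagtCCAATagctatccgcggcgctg
Mcm6: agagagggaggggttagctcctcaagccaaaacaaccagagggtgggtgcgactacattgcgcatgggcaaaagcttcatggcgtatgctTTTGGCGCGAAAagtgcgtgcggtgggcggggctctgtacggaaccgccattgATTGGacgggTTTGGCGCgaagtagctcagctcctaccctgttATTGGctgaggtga
Ccnb1: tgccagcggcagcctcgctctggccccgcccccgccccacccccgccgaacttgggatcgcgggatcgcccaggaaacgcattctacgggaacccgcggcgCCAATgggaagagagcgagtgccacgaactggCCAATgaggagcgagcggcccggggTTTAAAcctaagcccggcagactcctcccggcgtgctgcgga
Cdk1: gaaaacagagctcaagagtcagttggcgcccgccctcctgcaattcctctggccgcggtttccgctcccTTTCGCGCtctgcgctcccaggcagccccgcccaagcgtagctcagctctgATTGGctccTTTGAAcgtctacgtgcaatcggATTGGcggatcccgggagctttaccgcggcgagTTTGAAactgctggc
Mki67: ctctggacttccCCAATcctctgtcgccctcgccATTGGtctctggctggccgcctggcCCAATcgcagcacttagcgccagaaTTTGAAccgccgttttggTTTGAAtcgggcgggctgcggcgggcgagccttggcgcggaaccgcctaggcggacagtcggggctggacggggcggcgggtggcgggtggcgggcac
Top2a: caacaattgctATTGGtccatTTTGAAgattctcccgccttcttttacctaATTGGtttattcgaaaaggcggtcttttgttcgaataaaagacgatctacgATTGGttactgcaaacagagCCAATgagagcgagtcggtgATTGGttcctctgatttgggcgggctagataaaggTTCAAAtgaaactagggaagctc
In Mcm5 and Mcm6 a pair of E2F matches overlaps on opposite strands, Mcm6 has a further one, and Cdc6 has a single one. Ccnb1, Mki67 and Top2a hold CHR and CCAAT without an E2F match, while Cdk1 holds all 3 motifs. The full window of Mcm5 holds all 3 as well, with a CHR match that starts at base -221, outside the bases shown.

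**Figure D1:**
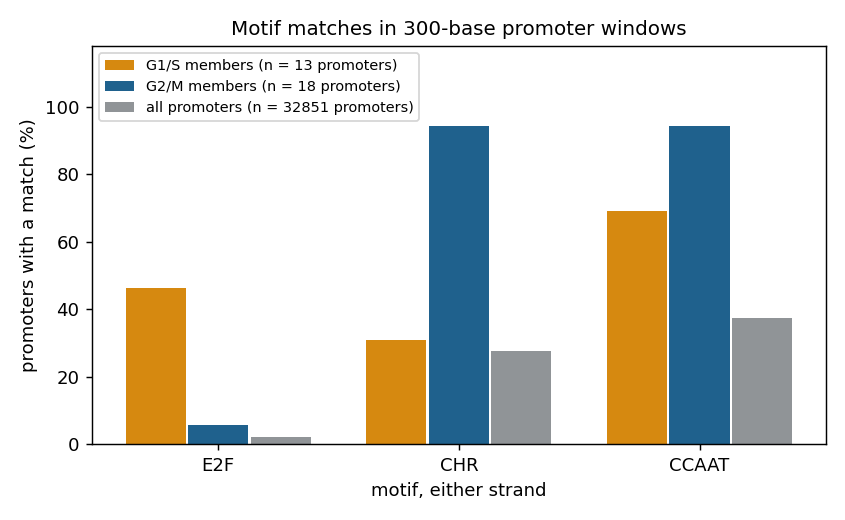
Share of promoter windows (y axis, percent) with an E2F, CHR or CCAAT match on either strand (x axis), for G1/S members (13 windows), G2/M members (18 windows) and all 32851 windows of the RefSeq table. Of the 3 sets, G1/S windows hold E2F most often (46.2%) and G2/M windows hold CHR and CCAAT most often (94.4% each).

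Library totals ran from 18784636 to 22028075 counts, all libraries were prepared and sequenced in 1 batch per the labels, and every pair of libraries of 1 genotype differed by more than sampling noise. A count of 3 corresponded to 0.136 to 0.16 CPM (counts scaled to library size), whereas the lowest value of any member in any library was 14.9 CPM. WT library 4 stood apart across the transcriptome: it was the highest of the 9 libraries for 30.5% of tested genes and the lowest for another 30.5%. WT library 1 came next, as the highest for 18% and the lowest for 16.5%. Ern1 ranged from 49.7 to 55.8 CPM in IRE1KO and from 41.5 to 54.2 CPM in WT libraries. Its log2 fold change of IRE1KO over WT was 0.17 (approximate 95% interval -0.0015 to 0.34). A total over the gene does not check the genotype where the deleted exons are not given. Markers of mesenchymal and osteoblast-lineage cells (9 genes) summed to 42733.9 to 47229.3 CPM in IRE1KO and 30706 to 61571.9 CPM in WT, highest in WT library 4. The osterix gene itself, Sp7, ranged from 15.6 to 21.2 CPM in IRE1KO and from 13.6 to 24.6 CPM in WT. Among other cells, 10 macrophage and blood markers summed to 117.5 to 266.3 CPM in IRE1KO and 67.2 to 241.4 CPM in WT, with Hba-a1 and Cd3e at 0 counts. The 6 endothelial markers, with Tie1 at 0, summed to 7.59 to 11.5 CPM in IRE1KO and 8.41 to 20.7 CPM in WT. Chondrocyte markers (7 genes) summed to 709.1 to 1401.9 CPM in IRE1KO and 1366 to 1425.4 CPM in WT. Glial and pigment cell markers (7 genes) summed to 51.5 to 57.7 CPM in IRE1KO and 68.9 to 77.6 CPM in WT libraries, and adipocyte markers (7 genes, Cidec at 0) to 43.5 to 53.4 CPM in IRE1KO and 70.5 to 115.4 CPM in WT. Of the tested markers, 1 endothelial gene (Pecam1) and 3 adipocyte genes (Plin4, Fabp4 and Lpl) passed as lower in IRE1KO. Pecam1 lies 0.166 Mb from Ern1 and averaged 8 counts, with 0.0531 to 0.291 CPM in IRE1KO and 0.562 to 0.923 CPM in WT. The other tested endothelial markers, Cdh5, Kdr and Tek, did not pass. No chondrocyte, glial or pigment cell marker passed. An unadjusted p under 0.05 (edgeR) with lower values in IRE1KO was reached by 3 of 7 chondrocyte markers (Comp, Col9a1 and Lect1). It was also reached by 5 of 7 glial and pigment cell markers, against 9.36% of all tested genes. The part of all these cell types in the values below was not tested.

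The comparison asks whether cells labelled IRE1KO express the replication and division program at another level than WT cells. None of the 36 members passed an adjusted p of 0.05 (quasi-likelihood test of edgeR, adjusted over all genes), against 0.634% of all tested genes, of which 0.255% were higher and 0.379% lower in IRE1KO. DESeq2, which called 4.14% of all tested genes, and limma voom called no member either. An unadjusted p under 0.05 was reached by 4 members: Ccne1, Ccne2 and Rrm1 with higher values in IRE1KO, and Cenpf with a lower one. Of all tested genes 16.5% reached it, so the members' share was below the background. The number was 8 members without WT library 1 and 6 without WT library 4, fits in which 3916 and 2771 of all tested genes reached it. The approximate 95% intervals of all 36 members lay between -0.49 and 0.47 on the log2 scale. Of 13712 tested genes, 9620 had an interval within 0.5 of 0 on both sides. No member was below 14.9 CPM in any library, whereas tested genes reached 0 CPM, and no set matched for level was compared.

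The signs of the estimates differed between the waves. Of the 14 G1/S members, 12 had positive log2 fold changes of IRE1KO over WT and 2 negative ones, with a median of 0.079. Of the 22 G2/M members, 5 were positive and 17 negative, with a median of -0.085. Over all tested genes 48.4% were positive and the median was -0.005. The G2/M split rested largely on WT library 4: without it 10 G2/M members were positive and 12 negative, with a median of -0.01. In that fit 13 of 14 G1/S members were positive, with a median of 0.11. Leaving out WT library 3 gave 7 positive and 15 negative G2/M members, with a median of -0.045. Without WT library 1 the medians were -0.15 for G2/M and 0.037 for G1/S members. Since no member passed the test, the signs describe the estimates only, and that of Cdk1 was negative with scaling by total counts alone.

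**Figure D2:**
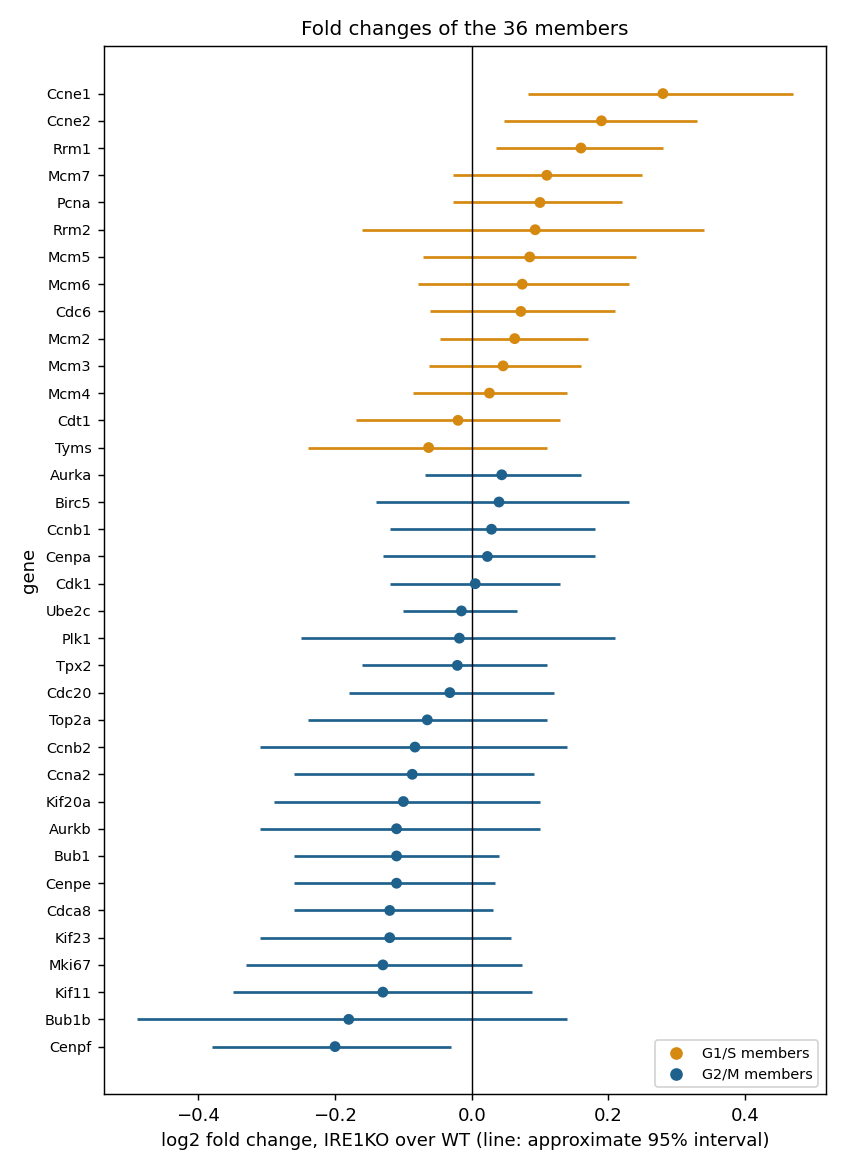
Log2 fold change of IRE1KO over WT (x axis) for each of the 36 members (y axis), with approximate 95% intervals from the edgeR fit as lines. G1/S members run from 0.28 (Ccne1) to -0.063 (Tyms) and G2/M members from 0.044 (Aurka) to -0.20 (Cenpf).

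The E-type cyclins, which activate CDK2 at the entry into S phase, had the largest positive estimates. Ccne1 (ENSMUSG00000002068, chromosome 7, 38097984 to 38107534, GRCm38) had 53.3, 58.4, 58.9, 51.5 and 57.8 CPM in IRE1KO libraries 1 to 5, against 49.2, 50.6, 47.4 and 37.8 CPM in WT libraries 1 to 4. Every IRE1KO library lay above every WT library, and WT library 4 was the lowest of all. Ccne1 was the 1 member of 36 whose groups did not overlap, against 6.94% of all tested genes, of which 3.66% were higher and 3.28% lower in IRE1KO. Its log2 fold change was 0.28 ± 0.085 SE (interval 0.083 to 0.47, adjusted p = 0.179 in edgeR's test over all genes), and the estimate was 0.19 without WT library 4, a fit in which 2.9% of all tested genes and no member were called. Ccne2 (chromosome 4, 11191351 to 11204779) had 34.1, 37.1, 35.4, 33.2 and 36.1 CPM in the 5 IRE1KO libraries, against 31.9, 30.5, 33.7 and 27.5 CPM in the 4 WT libraries. The groups overlapped by WT library 3 alone, which lay above IRE1KO library 4, and WT library 4 was again the lowest (log2 fold change 0.19 ± 0.062 SE, adjusted p = 0.20, edgeR).

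Origin licensing genes overlapped between the groups. Cdc6, which loads the MCM helicase onto origins, averaged 17.3 ± 0.648 CPM in IRE1KO and 16.4 ± 1.12 CPM in WT (SD, n = 5 and 4). Cdt1, its partner in loading, averaged 18.7 ± 1.02 CPM in IRE1KO and 18.9 ± 1.42 CPM in WT. Of the 6 subunits of the helicase, Mcm2 (chromosome 6, 88883474 to 88898780) had 66.4, 72.2, 69.8, 67.7 and 74.2 CPM in IRE1KO libraries, against 62.5, 67.1, 67.9 and 70.7 CPM in WT libraries. Its groups overlapped widely, with WT library 1 lowest (log2 fold change 0.063 ± 0.049 SE, adjusted p = 0.546, edgeR). Mcm7 (chromosome 5, 138164583 to 138172422) had 67.3, 73.3, 68.5, 61.3 and 68.1 CPM in IRE1KO libraries, against 57.5, 62.3, 63.3 and 67.7 CPM in WT libraries. It had the largest estimate among the subunits at 0.11 ± 0.061 SE (adjusted p = 0.40, edgeR), and IRE1KO library 4 lay below 3 of the 4 WT libraries. Mcm3 ranged from 52.4 to 57.6 CPM in IRE1KO and from 49.7 to 56.2 CPM in WT. Mcm4 ranged from 86.0 to 94.9 CPM in IRE1KO and from 81.9 to 93.0 CPM in WT. The remaining subunits, Mcm5 and Mcm6, had log2 fold changes of 0.085 and 0.074. All 6 subunits had positive estimates, from 0.026 to 0.11, although that of Mcm4 was -0.016 without WT library 2.

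Among the genes of DNA synthesis, Pcna (chromosome 2, 132249162 to 132253314), the sliding clamp of the replication fork, had 85.5, 87.5, 83.1, 80.4 and 86.4 CPM in IRE1KO libraries, against 76.0, 72.3, 85.7 and 82.6 CPM in WT libraries. WT libraries 1 and 2 were below all IRE1KO libraries and the other WT libraries were among them (log2 fold change 0.10 ± 0.055 SE, adjusted p = 0.413, edgeR). Rrm1 (chromosome 7, 102441695 to 102469771), the large subunit of ribonucleotide reductase, had 289.2, 293.2, 288.4, 298.2 and 287.1 CPM in IRE1KO libraries, against 287.5, 237.3, 256.3 and 264.9 CPM in WT libraries. The IRE1KO libraries were within 298.2 and 287.1 CPM of each other, and WT library 1 reached them while the other WT libraries were lower. Its log2 fold change was 0.16 ± 0.054 SE (adjusted p = 0.207, edgeR). Leaving out WT library 1 gave 0.20 (edgeR, adjusted p = 0.0327), in a fit that called 8.63% of all tested genes. It was the only member called in any of the 9 fits that left out 1 library.

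Rrm2 (chromosome 12, 24708241 to 24714146), the small subunit whose level limits the enzyme in S phase, had the largest SD of log2 CPM among WT libraries of the G1/S members (0.276). It had 114.0, 116.0, 120.1, 110.7 and 125.7 CPM in IRE1KO libraries, against 133.1, 118.7, 102.3 and 85.5 CPM in WT libraries. WT libraries were both the highest and the lowest of the 9, with an SD of 5.79 CPM in IRE1KO and 20.6 CPM in WT. The log2 fold change was 0.093 ± 0.11 SE with all libraries (adjusted p = 0.711, edgeR) and -0.0094 without WT library 4. Tyms, which makes thymidylate, averaged 36.3 ± 1.60 CPM in IRE1KO and 37.9 ± 4.66 CPM in WT libraries, and WT library 4 was its highest at 44.5 CPM. Rrm2 and Tyms, which both serve deoxynucleotide supply, were at opposite ends of the WT libraries there.

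**Figure D3:**
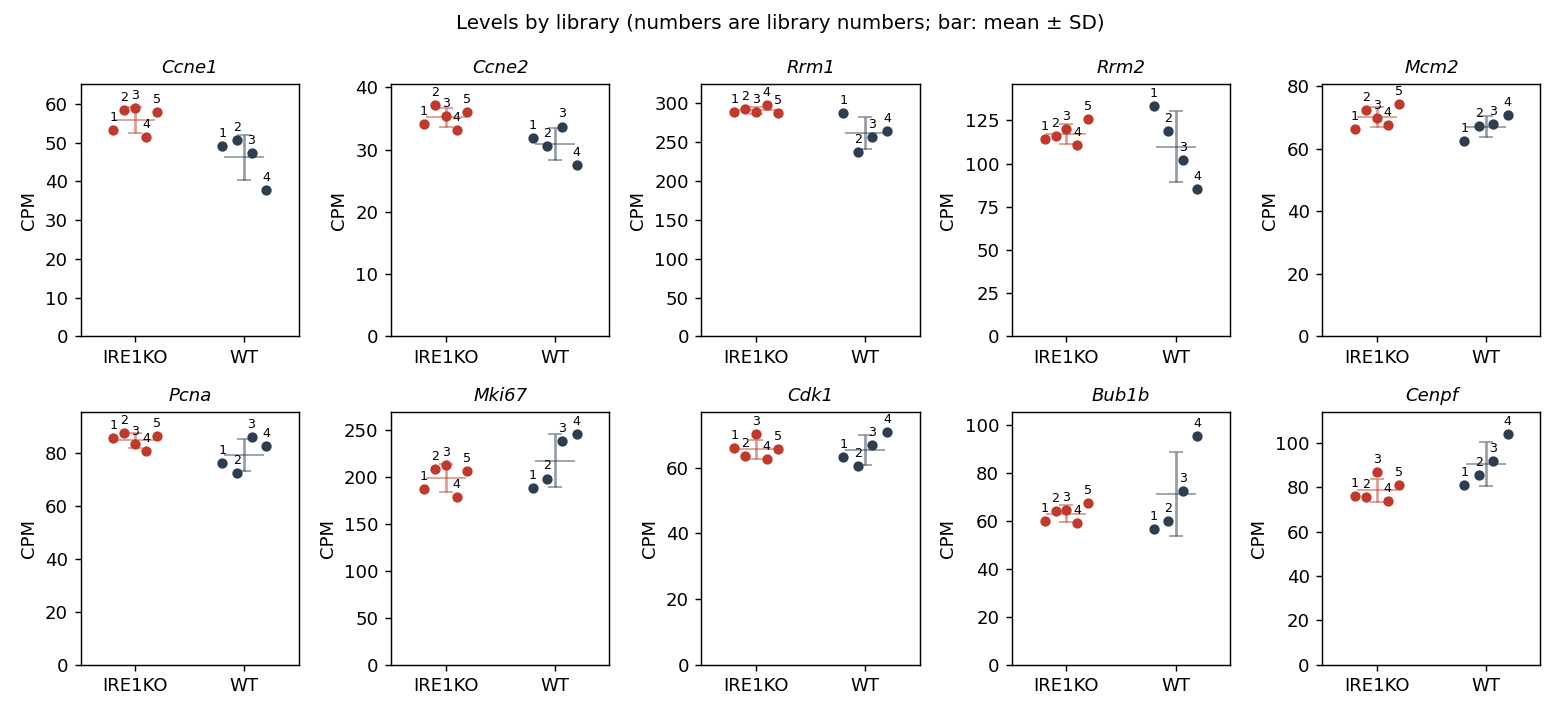
Level (y axis, CPM, from 0) of 10 members in each library, IRE1KO left of WT, with library numbers above the points and bars for mean ± SD. WT library 4 is the lowest point for Ccne1, Ccne2 and Rrm2 and the highest for Mki67, Cdk1, Bub1b and Cenpf.

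Proliferation and chromosome genes of the G2/M wave came next. Mki67 (chromosome 7, 135689784 to 135716361), which coats mitotic chromosomes and is the usual marker of cycling cells, had 187.2, 208.1, 212.0, 178.6 and 206.0 CPM in IRE1KO libraries, against 187.7, 197.9, 237.8 and 244.8 CPM in WT libraries. WT libraries 1 and 2 were within the IRE1KO range and WT libraries 3 and 4 above it (log2 fold change -0.13 ± 0.091 SE, adjusted p = 0.506, edgeR). Top2a (chromosome 11, 98992943 to 99024189), the topoisomerase that untangles sister chromatids, had 245.2, 261.0, 258.6, 242.4 and 256.4 CPM in IRE1KO libraries, against 239.7, 235.5, 278.5 and 303.8 CPM in WT libraries. Its WT libraries lay on both sides of all IRE1KO libraries, with a log2 fold change of -0.065 ± 0.076 SE (adjusted p = 0.70, edgeR) that became 0.0076 without WT library 4.

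The kinase and cyclins of mitotic entry overlapped between the genotypes. Cdk1 (chromosome 10, 69335146 to 69352938), the mitotic kinase, had 65.9, 63.5, 70.2, 62.8 and 65.7 CPM in IRE1KO libraries, against 63.4, 60.4, 66.9 and 70.8 CPM in WT libraries. The group means were 65.6 ± 2.89 CPM in IRE1KO and 65.4 ± 4.48 CPM in WT (log2 fold change 0.0052, interval -0.12 to 0.13). Ccnb1 (chromosome 13, 100778650 to 100786570), the main partner of CDK1, had 50.5, 50.7, 55.0, 52.0 and 53.9 CPM in IRE1KO libraries, against 46.5, 47.3, 57.3 and 54.2 CPM in WT libraries. Its IRE1KO values all lay inside the WT range, with a log2 fold change of 0.029 ± 0.067 SE. Ccnb2, the other B-type cyclin here, averaged 44.7 ± 1.94 CPM in IRE1KO and 47.3 ± 7.94 CPM in WT. Ccna2, cyclin A, which acts in S phase and at mitotic entry, averaged 77.6 ± 4.40 CPM in IRE1KO and 82.4 ± 9.85 CPM in WT.

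Mitotic kinases and spindle genes also overlapped. Plk1, a kinase of centrosome maturation and mitotic exit, averaged 59.6 ± 3.57 CPM in IRE1KO and 60.3 ± 9.89 CPM in WT. Aurka, the spindle pole kinase, ranged from 33.1 to 36.7 CPM in IRE1KO and from 32.0 to 36.6 CPM in WT, while its activator Tpx2 averaged 129.2 ± 7.96 CPM in IRE1KO and 131.0 ± 8.98 CPM in WT. Kif11, the kinesin that separates the spindle poles, averaged 68.9 ± 4.78 CPM in IRE1KO and 75.3 ± 11.4 CPM in WT. Across these genes the means differed by less than the SD of the WT libraries.

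The chromosomal passenger complex and cytokinesis genes followed. Aurkb, its kinase, averaged 27.0 ± 1.44 CPM in IRE1KO and 29.1 ± 4.19 CPM in WT libraries, and Birc5 (survivin) averaged 35.5 ± 2.86 CPM in IRE1KO and 34.5 ± 3.71 CPM in WT. Cdca8 (borealin; chromosome 4, 124918465 to 124939311) had 29.0, 30.7, 32.8, 30.8 and 34.0 CPM in IRE1KO libraries, against 30.9, 33.5, 34.7 and 37.3 CPM in WT libraries. The groups overlapped (log2 fold change -0.12 ± 0.065 SE, adjusted p = 0.405, edgeR). Kif23 (chromosome 9, 61915905 to 61946774), a kinesin of the central spindle, had 56.5, 63.5, 63.5, 54.4 and 62.7 CPM in IRE1KO libraries, against 59.0, 61.1, 66.5 and 75.6 CPM in WT libraries. WT libraries 3 and 4 were above all IRE1KO libraries and the other WT libraries among them (log2 fold change -0.12 ± 0.081 SE). Kif20a, which carries the passenger complex to the midzone, averaged 123.5 ± 6.15 CPM in IRE1KO and 132.2 ± 18.3 CPM in WT.

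The lowest estimates of the 36 members, those of Cenpf and Bub1b, were in kinetochore and checkpoint genes. Cenpf (chromosome 1, 189640606 to 189688086), a large kinetochore protein, had 76.2, 75.6, 86.7, 74.0 and 80.9 CPM in IRE1KO libraries, against 81.0, 85.3, 91.9 and 104.0 CPM in WT libraries. IRE1KO library 3 lay above WT libraries 1 and 2, and the other IRE1KO libraries lay below all WT libraries. Its log2 fold change was -0.20 ± 0.077 SE (interval -0.38 to -0.03, adjusted p = 0.236, edgeR), the smallest unadjusted p of the G2/M members, and it was -0.13 without WT library 4. Cenpe (chromosome 3, 135212537 to 135273611), a kinetochore kinesin, had 109.9, 116.9, 122.2, 110.6 and 112.0 CPM in IRE1KO libraries, against 115.2, 112.0, 130.6 and 137.3 CPM in WT libraries. Bub1 (chromosome 2, 127801122 to 127831865), a checkpoint kinase, had 49.0, 50.5, 50.4, 48.3 and 47.2 CPM in IRE1KO libraries, against 47.3, 50, 54.3 and 60.4 CPM in WT libraries. For both genes WT libraries 3 and 4 were above all IRE1KO libraries, and both had a log2 fold change of -0.11. Bub1b, which encodes the checkpoint protein BUBR1, had 59.9, 64.1, 64.3, 58.9 and 67.4 CPM in IRE1KO libraries, against 56.6, 60, 72.4 and 95.4 CPM in WT libraries. WT library 4 was 1.52 times the geometric mean of the other WT libraries, more than for any other member. Cenpa, the centromeric histone, averaged 32.9 ± 2.12 CPM in IRE1KO and 32.4 ± 2.85 CPM in WT. The genes of mitotic exit were Cdc20, an activator of the anaphase-promoting complex, which averaged 56.0 ± 3.97 CPM in IRE1KO and 57.2 ± 4.15 CPM in WT libraries, and Ube2c, the complex's ubiquitin-conjugating enzyme, with 56.5 ± 1.33 CPM in IRE1KO libraries and 57.1 ± 1.79 CPM in WT libraries.

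**Figure D4:**
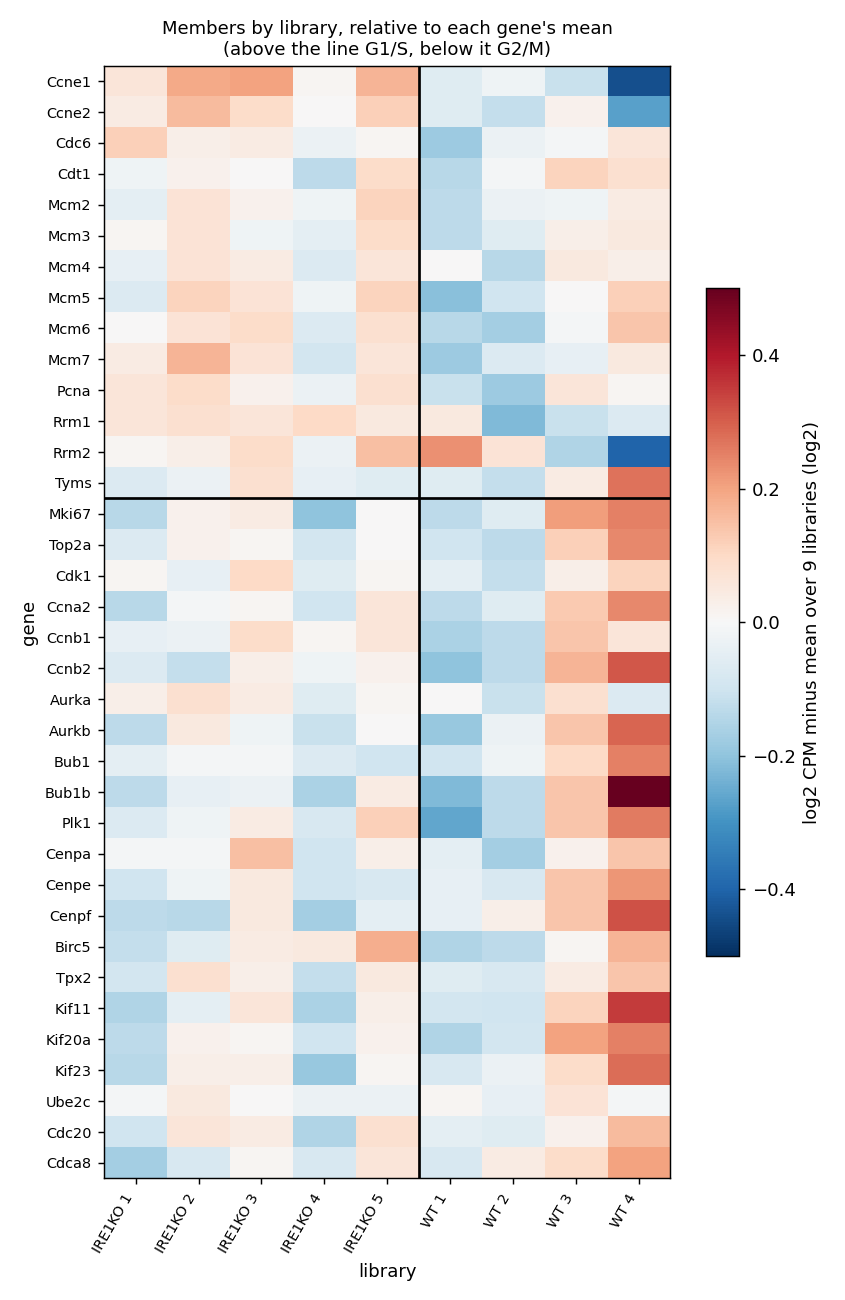
Log2 CPM of each member (rows, G1/S above the line and G2/M below it) in each library (columns, IRE1KO left of WT), as the difference from that gene's mean over 9 libraries. G2/M members are mostly highest in WT library 4 (17 of 22), where Ccne1, Ccne2 and Rrm2 are lowest.

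The members varied more among WT than among IRE1KO libraries. The SD of log2 CPM was larger in WT for 35 of 36 members (97.2%), Cdc20 being the exception, and for 82.7% of all tested genes. Its median was 0.0813 in IRE1KO and 0.155 in WT for G2/M members, 0.0644 in IRE1KO and 0.113 in WT for G1/S members, and 0.0775 in IRE1KO and 0.165 in WT over all tested genes. WT library 4 was the highest of the 9 libraries for 17 of 22 G2/M members (77.3%) and for 30.5% of all tested genes, and it was the lowest for no G2/M member. Among G1/S members it was the highest for 3 of 14 and the lowest for 3 of 14, namely Ccne1, Ccne2 and Rrm2. Still, 11 of 14 G1/S members were above the mean of the other WT libraries in WT library 4 (median log2 difference 0.1). The same held for 20 of 22 G2/M members (median 0.26). WT library 1 was the lowest for 6 of 14 G1/S members and 7 of 22 G2/M members. The mesenchymal, endothelial, glial and adipocyte marker sums were also highest in WT library 4. The chondrocyte sum, mostly Col2a1 (1098 of 1366 CPM in WT library 4), was not. Comp (117.7 CPM), Col9a1 (6.21 CPM), Lect1 (9.87 CPM) and Sox9 (128.6 CPM) were nevertheless highest in WT library 4, whereas Col2a1, Acan and Matn3 were not. Single genes carried much of some sums there: Col1a1 31079.3 of 61571.9 CPM, Tek 17.5 of 20.7 CPM and Lpl 90.5 of 115.4 CPM. Other markers were higher in another WT library, among them Sp7 (16.5 CPM in WT library 4), Cdh5 (1.2 CPM), Mbp (16.6 CPM) and Plin4 (8.93 CPM). The sums therefore do not count cells of a type, and the part of such cells in these values was not tested.

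The mean log2 CPM over each class gave a score per library. The G1/S score was 5.89, 5.96, 5.94, 5.85 and 5.96 in IRE1KO libraries 1 to 5, against 5.80, 5.80, 5.87 and 5.86 in WT libraries 1 to 4. IRE1KO library 4 lay among the WT libraries and the other IRE1KO libraries above them. The G2/M score was 5.96, 6.04, 6.08, 5.95 and 6.07 in IRE1KO, against 5.94, 5.97, 6.15 and 6.26 in WT, so that WT libraries enclosed all IRE1KO libraries. The G1/S score minus the G2/M score was -0.06, -0.07, -0.14, -0.10 and -0.11 in IRE1KO, against -0.14, -0.17, -0.28 and -0.40 in WT. IRE1KO library 3 and WT library 1 had the same value to 2 decimals, and WT library 4 was the farthest from the rest. IRE1KO minus WT means were 0.0896 for the G1/S score, -0.0612 for the G2/M score and 0.151 for their difference, or 1.11-fold. Without WT library 4 they were 0.0983, -0.0019 and 0.10, so that the mean G2/M difference rested largely on that library. WT library 3 also had a G2/M score above every IRE1KO library, and the G2/M difference was -0.0367 without it. Without Ccne1 and Ccne2 the G1/S difference was 0.0652. No test was made on these scores, because the members were chosen with earlier results known.

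**Figure D5:**
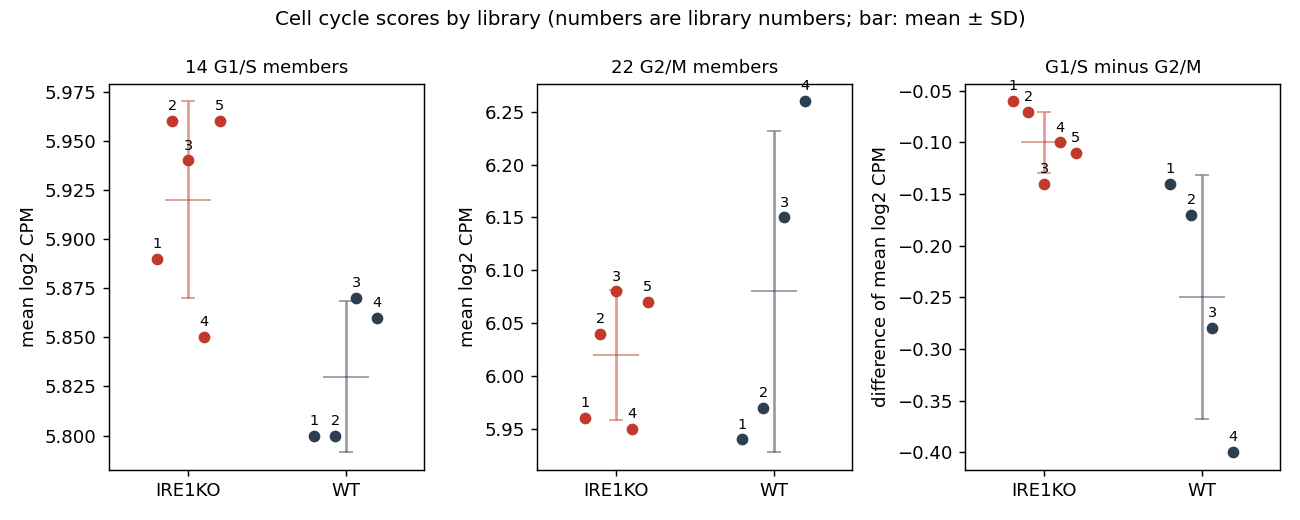
Mean log2 CPM of 14 G1/S members, of 22 G2/M members, and G1/S minus G2/M (y axes), per library, IRE1KO left of WT, with library numbers and bars for mean ± SD. G2/M scores of WT libraries run from 5.94 to 6.26 and enclose the IRE1KO libraries (5.95 to 6.08).

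Genes of the same pathway outside the 36 members gave no call either: 0 of 145 tested genes passed in edgeR, DESeq2 or limma voom. Among 42 replication fork and origin genes, 4 had an unadjusted p under 0.05 with higher values in IRE1KO and none with lower ones, against 7.14% and 9.36% of all tested genes. The list had 25 positive and 17 negative estimates and a median log2 fold change of 0.028, and the balance moved with single WT libraries: 20 were positive without WT library 1 (median -0.00041), 22 without WT library 2 (median 0.0058), 31 without WT library 3 (median 0.033) and 34 without WT library 4 (median 0.059). The 3 with the smallest p were Gins2, a subunit of the replicative helicase (0.14 ± 0.048 SE), Ung, which removes uracil from DNA (0.28 ± 0.10 SE), and Orc1, a subunit of the origin recognition complex (0.36 ± 0.15 SE). Orc1 had 11.3, 11.3, 13.9, 10.4 and 11 CPM in IRE1KO libraries, against 11.8, 9.08, 8.28 and 6.95 CPM in WT libraries. WT library 1 was among the IRE1KO libraries and the other WT libraries were below them.

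Of 55 further mitosis and cytokinesis genes, 11 had positive and 44 negative estimates (median -0.052), and WT library 4 was the highest of 9 for 38 of them (69.1%). Without that library 28 were positive and 27 negative, with a median of 0.0055. Psrc1, a microtubule regulator, was the smallest in p and had 102.7 to 116.8 CPM in IRE1KO against 91.3 to 100.4 CPM in WT (log2 fold change 0.16 ± 0.047 SE, adjusted p = 0.163, edgeR). Casc5, now called Knl1, the kinetochore scaffold that recruits BUB1, had 37.8 to 42.1 CPM in IRE1KO against 42.2 to 54.0 CPM in WT (log2 fold change -0.23 ± 0.07 SE, adjusted p = 0.174, edgeR). Their groups did not overlap, Psrc1 being higher and Casc5 lower in IRE1KO, and the same held for Bub3, a checkpoint protein that was higher in IRE1KO (97.1 to 99.1 CPM in IRE1KO against 87.2 to 97 CPM in WT), so that 3 of the 55 did not overlap, against 6.94% of all tested genes. In that list 2 genes with higher and 6 with lower values in IRE1KO had an unadjusted p under 0.05. Of all tested genes, 7.14% with higher and 9.36% with lower values reached it. The log2 fold change of Kif14, a kinesin of cytokinesis, was -0.31 ± 0.10 SE. Of 23 E2F, RB and DREAM regulators the median was -0.028 (9 positive and 14 negative), but 0.0073 without WT library 4 (13 positive and 10 negative), and with scaling by total counts alone 6 were positive and 17 negative. The smallest p belonged to Rbl2 (p130, -0.14 ± 0.054 SE), Tfdp1, the dimer partner of E2Fs (0.11 ± 0.046 SE), and Rb1 (-0.17 ± 0.069 SE). Of 10 G1 cyclins, kinases and regulators the median was 0.02, or -0.0009 with scaling by total counts alone, with Fbxw7, the ubiquitin ligase subunit for cyclin E (0.24 ± 0.074 SE), Cdc25a, a phosphatase that activates CDK2 (0.17 ± 0.11 SE), and Myc (0.10 ± 0.093 SE) smallest in p. Of 15 genes of the anaphase-promoting complex and of mitotic exit the median was -0.0024, or 0.0035 without WT library 3 and 0.0068 without WT library 4. The subunits Anapc7 (0.11 ± 0.032 SE), Cdc16 (0.09 ± 0.057 SE) and Anapc11 (-0.077 ± 0.062 SE) were smallest in p.

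Members on the chromosome of Ern1 were set beside their distance from it. On chromosome 11, Top2a lies 7.37 Mb and Cdc6 7.47 Mb from Ern1, Birc5 11.4 Mb and Aurkb 37.3 Mb. Their log2 fold changes were -0.065, 0.072, 0.04 and -0.11, and none passed the test. Per length of annotated exon, mean levels over all 9 libraries ran from 3.23 CPM per kb for Cdc6 to 41.1 CPM per kb for Rrm2. Pcna at 34.2 CPM per kb was next to the top and Cenpf, at 5.44 CPM per kb, next to the bottom.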

How the data were processed

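Polyadenylated RNA of 5 IRE1KO and 4 WT pools was sequenced from strand-marked libraries, per the labels' protocols. The authors deposited raw counts per gene and library without normalization. The submitters' processing notes name STAR, limma and mm10, with neither roles nor versions. For the counting program, annotation and strand setting, a statement is not given in the sources used here. Overlapping genes and processed pseudogenes may therefore share reads with the members.

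Counts were tested in R 4.3.3 with edgeR 4.0.16 (filterByExpr, TMM, robust quasi-likelihood fit, genotype as the sole term) over 13712 genes, with Benjamini-Hochberg adjustment and a threshold of 0.05. DESeq2 1.42.0 and limma 3.58.1 served as alternatives. The step was tested on simulated data with known fold changes, all larger than the estimate of any member. That simulation therefore does not show whether differences as small as the members' would be found. Log2 fold changes are IRE1KO over WT, intervals are 95% and approximate, CPM values are scaled by TMM, and log2 CPM used a prior count of 2. Floors cover counting error only, and each library is a pool of pups, so that the spread between libraries includes biological variation. Positions and exon lengths come from GENCODE M21 (GRCm38), where 24957 of 25860 identifiers matched, and promoters from RefSeq on GRCm38.p6. Files and figures were handled in Python 3.11.15 with pandas 2.3.3 and matplotlib 3.10.9.

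The members and lists were chosen with earlier results of these data known. All 36 members are named; values in every library are given for Mki67, Top2a, Cdk1, Ccnb1, Mcm2, Mcm7, Pcna, Rrm2, Ccne1, Ccne2 and the 5 members per class with the smallest p. From each pathway list the 3 genes with the smallest p are named. Bub3 was named, Bub1b and Orc1 were shown per library, and Pcna and Cenpf among the levels per length, after their values were seen.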

Additional observations from a re-analysis of the deposited data

Results flagged for a closer look

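Tyms, thymidylate synthase, was at 39.1 CPM in IRE1KO library 3, apart from the other IRE1KO libraries at 35.1 to 36.2 CPM. The gap was 0.725 of the range of the group, above the 95% critical value of 0.71 for 5 samples. It was the single such case among 78 groups of values searched, where chance gives about 1 in 20.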

How the results depend on the processing

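Of 256 refits of the 16 members with values in every library, 247 kept their direction and side of the threshold. Among these 16, the sign turned for Cdk1 with total counts alone (-0.016) and, when 1 library was left out, for Cdk1 (-0.034 to 0.045), Ccnb1 (-0.016 to 0.087), Rrm2 (-0.0094 to 0.20) and Top2a (-0.12 to 0.0076). Of the other 20 members, 10 turned in at least 1 refit (Cdt1, Mcm4, Tyms, Ccnb2, Plk1, Cenpa, Birc5, Tpx2, Ube2c and Cdc20), all of them when 1 library was left out. Members called as higher in IRE1KO were 0 with all libraries and 0 to 1 when 1 library was left out, Rrm1 without WT library 1. Pathway genes called outside the members were 0 with all libraries and 0 to 7 when 1 was left out: Kif14, Aspm, Casc5, Fbxw7, Orc1, Rbl2 and Cdc25a without WT library 1, and Rb1 without WT library 4. The cause was not tested. No member was called as lower in any refit. Over all genes, edgeR called 87, against 46 with total counts, 45 without the low-count filter, 568 with DESeq2, 16 with limma voom, 1192 without WT library 1, 399 without WT library 4 and 2 to 8 without any 1 of the others. In the fits that left out 1 library the medians of the estimates ran from 0.037 to 0.11 (G1/S) and from -0.15 to -0.01 (G2/M). Score differences kept their sign: 0.0749 to 0.106 (G1/S), -0.108 to -0.0019 (G2/M) and 0.10 to 0.187 (G1/S minus G2/M).

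IRE1KO and WT libraries share replicate numbers, but same-numbered libraries deviated together with correlations of 0.15, -0.20, -0.19 and 0.47 across genes, so the numbers were not taken as pairs, and not every library correlated best with its own number. With the number as a replicate block, 0 members, 0 pathway genes and 0 genes in all were called (1596 had an unadjusted p under 0.05), and the score differences were 0.0796, -0.0739 and 0.153.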

Other observations

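WT library 4 was the lowest of 9 libraries for several G1 and origin genes while 17 of 22 G2/M members were at their highest there. Besides Ccne1, Ccne2 and Rrm2, this held for Orc1 (6.95 CPM), Gins2 (27.2 CPM), Cdc25a (29.7 CPM), Myc (34.0 CPM), Fbxw7 (24.3 CPM) and Tfdp1 (72.1 CPM). It was the lowest library for 6 of 10 genes in the list of G1 cyclins, kinases and regulators (60%) and the highest for 3 of them. Among 42 replication fork and origin genes it was the lowest for 8 (19%) and the highest for 17 (40.5%). Over all tested genes it was the lowest for 30.5% and the highest for 30.5%. Of 14 G1/S members, 11 were higher in WT library 4 than the mean of the other WT libraries. The genes named here were picked for being lowest in WT library 4, after their values were seen.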
